A study of Capra hircus with 12 samples.

Results

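MicroRNAs (miRNAs) best known from liver, gut and kidney epithelium, pancreas and nervous tissue were followed through the yearly cycle of the secondary hair follicles (SHFs) of cashmere goats. They were chosen by name, with earlier results of these data known: every entry for the families miR-122, miR-192, miR-194, miR-215, miR-216a, miR-216b, miR-217, miR-375, miR-9 and miR-124a, whichever arm of the precursor it came from. Of the 376 miRNAs listed, 8 matched, from 7 of the 10 families, and all 8 were counted in all 12 libraries. No entry was found for miR-216a, miR-375 or miR-124a. The 8 entries were chi-miR-122, chi-miR-192-3p, chi-miR-192-5p, chi-miR-194, chi-miR-215-5p, chi-miR-216b, chi-miR-217-5p and chi-miR-9-5p, written from here on without the goat prefix, and together they held between 0.0722% and 0.0997% of the counts of a library.

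SHFs are the follicles that grow cashmere, the fine undercoat, and they pass each year through growth (anagen), regression (catagen) and rest (telogen). They were isolated under a dissecting microscope from back skin of Liaoning cashmere goats of 1.5 years and both sexes, and their small RNA was sequenced. There were 12 libraries, 1 female and 1 male in each of 6 months, giving 4 telogen libraries (February and March), 2 of early anagen (May), 2 of mid-anagen (September) and 4 of catagen (November and December). Several goats of each sex were sampled in each month, and how they were combined into a library is not given in the sources used here, so a p-value measures the spread between libraries, which here differ by month or sex within a phase. Phase, month and season could not be told apart.

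A mature miRNA is a short RNA cut from a hairpin precursor, loaded into an Argonaute protein, and used to silence messenger RNAs that pair with its seed. miR-122 is the dominant miRNA of hepatocytes, where it is needed for cholesterol metabolism. miR-192 and miR-215 have the same seed and nearly the same sequence, and with miR-194 they mark intestinal and renal epithelium and respond to p53. miR-216a, miR-216b and miR-217 are made from neighbouring hairpins and mark the acinar pancreas, miR-375 marks endocrine cells, and miR-9 and miR-124 act in neural progenitors and neurons.

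The libraries held between 3135292 and 5788032 miRNA counts, with a median of 4469050. Values are given as raw counts and as TPM, which in these files is the count divided by all miRNA counts of the library, times 1000000, with no term for length, and so the same as counts per 1000000 (CPM). Tests used edgeR's quasi-likelihood test on the counts of 300 miRNAs with more than 5 CPM in at least 2 libraries, and a DE miRNA had a Benjamini-Hochberg adjusted p under 0.05 over all 300 and at least a 2-fold change. Fold changes are set on the trimmed mean of M-values (TMM) scale, which corrects for a few abundant miRNAs taking more of a library. TMM and plain library totals differed here: over all tested miRNAs the median log2 change from May to catagen was 0.08 by TMM and -0.47 by totals, and from catagen to telogen it was 0.00064 and 0.35. As a view of the tissue, 7 of 8 epidermal and follicle epithelial families (all but miR-205) had a row and summed to between 57143 and 96872 TPM. All 5 mesenchymal families summed to between 118318 and 148888 TPM. Muscle families (5 of 7 with a row) were also present, at between 1902 and 3614 TPM. The epithelial list holds miR-203, which the authors found higher in epidermis and in the follicles of the coarse coat than in SHFs. Its sum is therefore no measure of purity.

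Of the 8 miRNAs, 7 passed the filter. miR-192-5p, miR-194, miR-217-5p and miR-9-5p were over 5 CPM in all 12 libraries. miR-216b was so in 5 libraries, all of May or telogen, and miR-122 and miR-215-5p were so only in the 2 male telogen libraries. These last entered the tests through the libraries in which they were high. The numbers of DE miRNAs and the median changes given here thus describe these 7 and are no measure of the whole set. For the called changes of these 3, p-values are given also from fits with no filter. The plot of counts by month shows all 8.

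**Figure D1:**
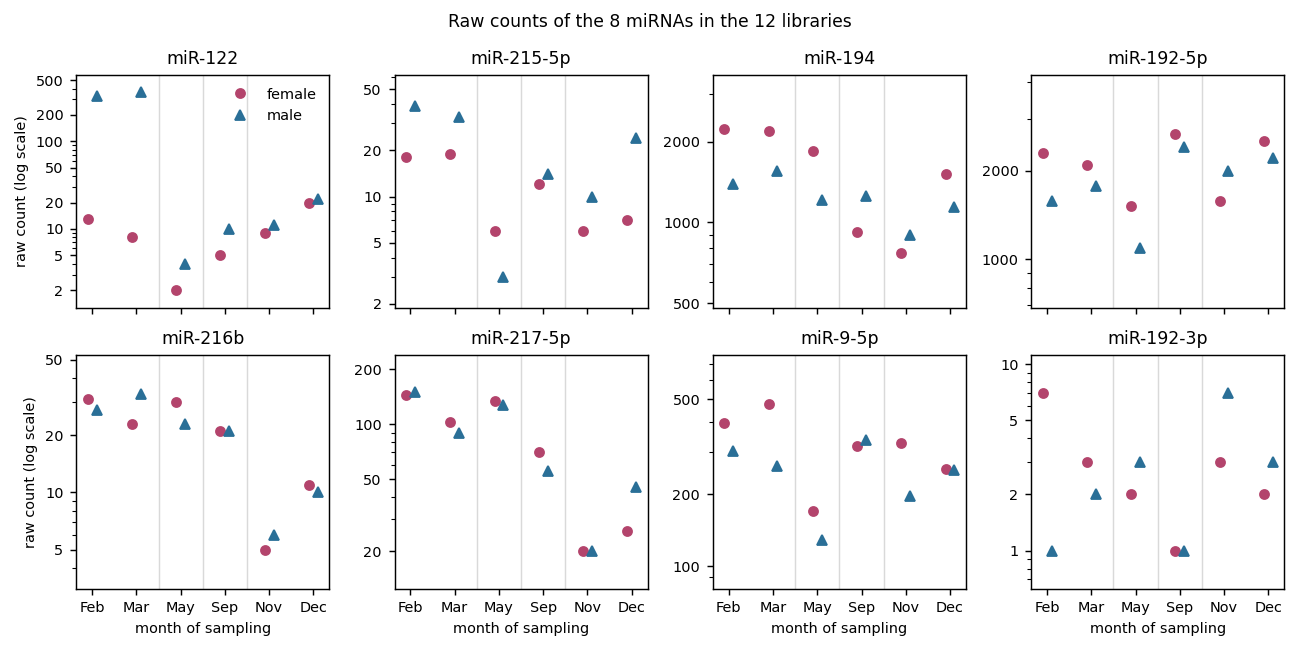
Raw counts (vertical axis, log scale, a range of its own for each miRNA) of the 8 miRNAs in the 12 libraries by month of sampling, with circles for female and triangles for male libraries and vertical lines between phases. miR-122 had 325 and 361 counts in the male libraries of February and March and at most 22 elsewhere, miR-217-5p and miR-216b were lowest in November and December, and miR-9-5p was lowest in May.

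miR-122, the hepatocyte miRNA, was high in the 2 male telogen libraries and low, at no more than 22 counts, in the other 10. It had 325 counts in the February male and 361 in the March male library, but 13 in the February female and 8 in the March female library. May had 2 counts in the female and 4 in the male library, and September 5 and 10. In catagen it had 9 counts in the November female, 11 in the November male, 20 in the December female and 22 in the December male library. In catagen the male and female libraries of a month thus differed by 2 counts, and the male telogen libraries stood apart from all others.

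These 2 libraries had 73.2 and 87.3 TPM of miR-122, and the other 10 libraries had between 0.48 and 4.45 TPM. Its best rank among the 376 miRNAs was 135, in the February male library, and outside the male telogen libraries it ranked between 270 and 370. The male level was 32.6 times the female level in February, with an exact 95% interval of 18.8 to 61.9, and 55.6 times in March, with an interval of 27.9 to 130, both for counting error only. In the other 4 months the male to female ratio lay between 0.96 and 2.64. The male to female difference in telogen was 5.14 on the log2 scale and in catagen 0.03, and the difference between them was 5.11 (SE 0.51), with an adjusted p of 0.000887 by edgeR's quasi-likelihood test with Benjamini-Hochberg adjustment. It was 1 of 4 miRNAs, or 1.33% of the 300, for which this test of sex within phase passed, 1% of them with a higher male to female difference in telogen, and it had the largest difference of the 4; no other miRNA of the set passed. As miR-122 entered the test only through the male telogen libraries, it was repeated with no filter on low counts, a setting chosen after seeing the data, and gave 4.92 (SE 0.51, adjusted p 0.000704). In this fit each sex had 2 libraries in telogen and in catagen and 1 in May and in September. The spread was thus estimated from the February with March and November with December pairs of a sex only. Leaving out any 1 of the 8 telogen and catagen libraries gave between 4.75 and 5.44. Each such fit leaves 1 library for that sex and phase, assumed to vary like the others, so only the sizes are given. In bulk tissue, more cells of a type and more RNA per cell cannot be told apart.

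Across all 376 miRNAs, 18 were higher in both male telogen libraries than in each of the other 10, and miR-122 was the only 1 of them by at least 2-fold. Its lower male telogen value was 16.5 times the highest value elsewhere. The next was miR-215-5p, at 1.71 times. The miRNAs of red blood cells, miR-451 and miR-144 (2 of 3 listed families with a row), summed to 52.3 TPM in the February male and 115 TPM in the March male library. In the other 10 they summed to between 5.41 and 45.9 TPM. Only miR-451-5p was higher in both male telogen libraries than in the other 10, at 38.5 TPM or more against at most 30.2 TPM. The lower male telogen value of miR-144-5p was 13.7 TPM, and its highest value elsewhere was 15.7 TPM. The leukocyte list (4 of 5 families with a row) summed to 1124 and 1073 TPM in the male telogen libraries and to 1595 and 1768 TPM in the female ones. Not every member followed that sum: miR-223-5p had at least 17.2 TPM in both male telogen libraries and at most 16.2 TPM in the other 10. Endothelial miR-126 summed to 9022 and 9990 TPM in the male and 12023 and 12699 TPM in the female telogen libraries. The epidermal and follicle epithelial list summed to 79581 and 96872 TPM in the male and 65048 and 57973 TPM in the female ones. Outside the male telogen libraries it reached 94579 TPM. The muscle list summed to 3345 and 1902 TPM in the male and 3220 and 3614 TPM in the female telogen libraries. The part of these cells in the miR-122 result was not tested.

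**Figure D2:**
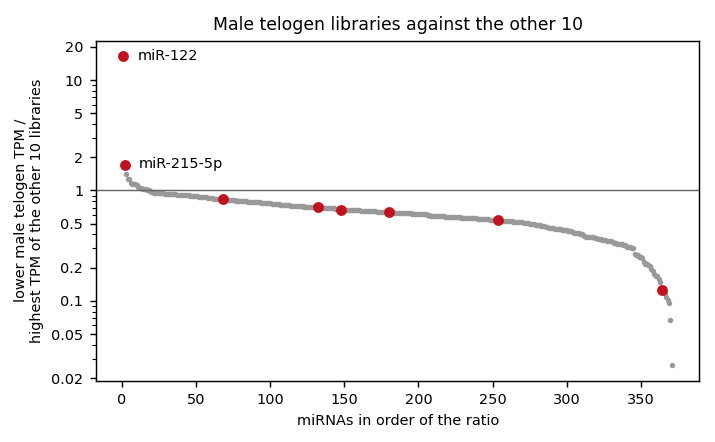
For each of the 371 miRNAs with a value above 0, the lower of the 2 male telogen TPM values divided by the highest TPM of the other 10 libraries (log scale), in order of that ratio, with the 8 miRNAs described here in red and a line at 1. miR-122 stands at 16.5, miR-215-5p is next at 1.71, and the other 6 lie below 1.

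Because of these 2 libraries miR-122 was a DE miRNA between catagen and telogen, with a log2 fold change of 3.05 (SE 0.99) and an adjusted p of 0.0322 by edgeR's quasi-likelihood test, although the telogen range, 1.57 to 87.3 TPM, enclosed the whole catagen range of 2.60 to 4.45 TPM. Without both male telogen libraries, a comparison chosen after seeing the data, the direction turned: the female telogen libraries were lower than catagen, with a log2 fold change of -1.14 and an adjusted p of 0.0375. With sex as a block the change was 2.12 and the adjusted p 0.0654, with only these phases in the fit 3.13 and 0.0551, and with no filter 3.10 and 0.0348. Leaving out either male telogen library or any 1 of the 4 catagen libraries also ended the call, with changes of 2.42 to 3.16 and adjusted p from 0.0607 to 0.0811.

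The same holds for the change from telogen to September, -4.39 (SE 1.46) with an adjusted p of 0.0438, which was -4.40 (adjusted p 0.0466) with no filter and became -0.21 without the male telogen libraries; the September range of 0.93 to 1.95 TPM overlapped that of telogen. That call also ended on leaving out any 1 of 10 libraries, namely both of May, both of September, all 4 of catagen and the male ones of telogen. The change from telogen to May was -5.65 (SE 1.67) with an adjusted p of 0.061, which missed the threshold. It was called with sex as a block (-5.02, adjusted p 0.0384), by DESeq2 (adjusted p 0.0012), by the edgeR exact test (adjusted p 0.00724), and on leaving out the February female, the March female or the March male library (adjusted p 0.0449, 0.0252 and 0.0384), and not with no filter (adjusted p 0.0753) or without both male telogen libraries (-1.48, adjusted p 0.0776). Pooled over libraries, telogen had 707 counts and May 6. Female telogen alone had 21 counts and was 2.34 times the May level, with an interval of 0.913 to 7.08. Catagen, with 62 counts, was 4.42 times the May level with an interval of 1.92 to 12.5. The lowest month for miR-122 was May, though the fit from May to catagen gave 2.60 (SE 1.79) with an adjusted p of 0.256. With only May and catagen in the fit the change was called, at 2.51 (SE 0.53, adjusted p 0.00244). It was not called by DESeq2 (adjusted p 0.129), by the edgeR exact test (adjusted p 0.141) or with no filter (adjusted p 0.303).

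miR-192-5p and miR-194 were the abundant gut and kidney epithelial miRNAs, ranked between 72 and 99 of 376 in every library, while miR-215-5p was rare. miR-192-5p, an inhibitor of cell cycle genes downstream of p53, was highest in catagen and September. It had 1576 counts in the November female, 1994 in the November male, 2527 in the December female and 2219 in the December male library. September had 2660 in the female and 2417 in the male library, and May 1521 and 1092. Telogen had 2306 and 1580 in February and 2093 and 1780 in March, again female first. Since the libraries differed in depth, the order of the phases is clearer in TPM: catagen 491 ± 58.8 TPM (SD, n = 4), September 482 ± 14.2 (n = 2), telogen 399 ± 31.6 (n = 4) and May 358 ± 13.7 (n = 2). On the TMM scale the catagen and September ranges both lay above all telogen libraries, and those above both May libraries. In TPM the telogen range overlapped those of catagen and of May. From telogen to May the log2 change was -0.36 (SE 0.15), with an adjusted p of 0.147 by edgeR's quasi-likelihood test. Catagen and September overlapped on both scales, with a log2 difference of 0.05 and an adjusted p of 0.929 by the same test.

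Between May and catagen miR-192-5p rose by 1.01 on the log2 scale (SE 0.15), with an adjusted p of 0.000844 by edgeR's quasi-likelihood test, just past the 2-fold minimum. By library totals the rise was 0.45 with an adjusted p of 0.0247. It was also under 2-fold, and so not called, by relative log expression (RLE) scaling and by DESeq2 (0.97 each), with no filter (0.93), with only May and catagen in the fit (0.90) and with over 5 CPM asked in all libraries (0.77), with adjusted p from 6.97e-09 to 0.00158. From May to September it was higher by 0.96 (SE 0.17, adjusted p 0.00198), from telogen to September higher by 0.60 (SE 0.14, adjusted p 0.012), and from catagen to telogen lower, at -0.65 (SE 0.12, adjusted p 0.00207), and each of these was under 2-fold and so not called. Leaving out either May library, the November male, the December female or the March female library took the change from May to catagen under 2-fold, to between 0.86 and 0.98, with adjusted p from 0.00094 to 0.024. The other arm, miR-192-3p, had between 1 and 7 counts a library, too few for the tests. Its 35 counts in all were 0.147% of the counts of both arms, with a Wilson 95% interval of 0.106% to 0.204%.

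miR-194, made beside miR-215 from one precursor region and beside miR-192 from another in mammals, went another way than miR-192-5p. It had 2225 counts in the February female, 1396 in the February male, 2199 in the March female and 1557 in the March male library. May had 1842 counts in the female and 1215 in the male library, and September 920 and 1258. In catagen it had 767 and 901 counts in November and 1521 and 1144 in December. The December female library stood above the other 3 of catagen. In TPM the order was May at 416 ± 40.9 TPM (n = 2), telogen at 377 ± 48.2 (n = 4), catagen at 254 ± 56.6 (n = 4) and September at 208.1 ± 53.4 (n = 2). On the TMM scale telogen came first, at a mean of 344 CPM, then May at 329, catagen at 293 and September at 235. miR-194 was called in none of the comparisons on that scale. From telogen to September its log2 change was -0.55 (SE 0.22) with an adjusted p of 0.0734, and from May to September -0.48 (SE 0.24) with an adjusted p of 0.142, where library totals gave -1.001 and an adjusted p of 0.00868. From catagen to telogen it was 0.23 (SE 0.17) with an adjusted p of 0.294.

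A ratio of counts within a library needs no scaling between libraries, so it was taken for the pairs that share a locus or a cluster; these ratios were chosen after seeing the values. miR-194 per count of miR-192-5p was between 0.875 and 1.05 in telogen and between 1.11 and 1.21 in May, and between 0.346 and 0.52 in September and 0.452 and 0.602 in catagen. The 6 libraries of telogen and May thus all lay above the 6 of September and catagen. The geometric mean was 0.941 in telogen and 0.511 in catagen, a log2 difference of 0.88, which stayed between 0.82 and 0.96 on leaving out any 1 of these 8 libraries. The two-sided exact permutation test of telogen against catagen gave p = 0.0286, the smallest it can give with 4 against 4 libraries, and 0.0857 after adjustment over the 3 ratios tested. In the goat RefSeq table (assembly ARS1.2, used here for the order of genes only) MIR194 stands next to MIR215, and MIR192 has no miRNA beside it.

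**Figure D3:**
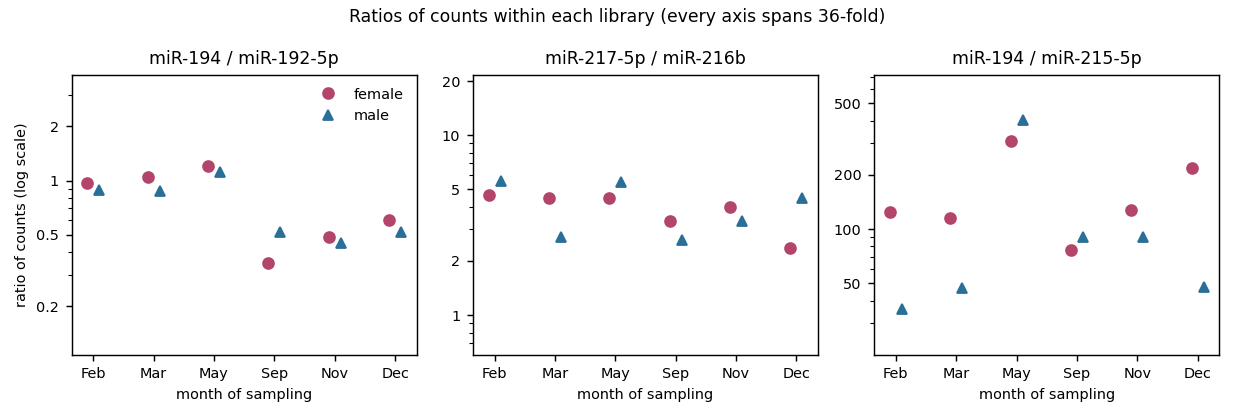
Ratio of raw counts (log scale, 36-fold on each axis) of 3 pairs of miRNAs within each library, by month, with circles for female and triangles for male libraries. miR-194 / miR-192-5p was 0.875 to 1.21 from February to May and 0.346 to 0.602 from September to December, miR-217-5p / miR-216b stayed between 2.36 and 5.56, and miR-194 / miR-215-5p ranged from 35.8 to 405.

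miR-215-5p, which has the seed of miR-192, was counted 3 to 39 times in a library. In telogen it had 18 counts in the February female, 39 in the February male, 19 in the March female and 33 in the March male library. May had 6 in the female and 3 in the male library, and September 12 and 14. Catagen had 6 and 10 counts in November and 7 and 24 in December. All 4 telogen libraries thus had more counts than all of May and September, while the December male library lay inside the telogen range.

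From telogen to May miR-215-5p fell by 2.38 on the log2 scale (SE 0.60), with an adjusted p of 0.0375 by edgeR's quasi-likelihood test. It was the 1 DE miRNA of the 7 in this comparison, in which 2.33% of all tested miRNAs were called and 2% were called as lower, and the median log2 change of the 7 was -0.36 against -0.001 over all. Pooled counts were 109 and 9, a ratio of levels of 4.53 with an interval of 2.30 to 10.2. miR-215-5p entered the tests only through the male telogen libraries, and with no filter the call was lost (-2.37, adjusted p 0.0543). The adjusted p was also over 0.05 by library totals (0.0639), with only telogen and May in the fit (0.123), and without either May, either September, the November male or the February male library, where the change lay between -2.61 and -2.13 and the adjusted p between 0.0516 and 0.357. Its change from catagen to telogen was 0.72 (SE 0.40, adjusted p 0.17) and from May to catagen 1.66 (SE 0.63, adjusted p 0.0563). The latter was called with sex as a block (1.54, adjusted p 0.0283), by the edgeR exact test (adjusted p 0.0428), with only May and catagen in the fit (adjusted p 0.0472), and without both male telogen (adjusted p 0.0247), the December female (0.032) or the February female library (0.0488).

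Male libraries had more miR-215-5p than female ones in 5 of 6 months. The ratio was 2.82 in February (interval 1.58 to 5.25), 2.14 in March (1.18 to 3.98) and 2.99 in December (1.25 to 8.23), and 0.66 in May on 9 counts in all. Over all months, with month as a term, the log2 male to female difference was 0.81 (SE 0.30), with an unadjusted p of 0.0207 and an adjusted p of 0.31. No miRNA at all was called between the sexes (0% of 300 by edgeR, with 34 of them under an unadjusted p of 0.05, and none of the 7 by DESeq2), miR-122 included, at 2.68 (SE 0.83, adjusted p 0.267). Reads of miR-215-5p and miR-192-5p may be hard to assign, and how the authors assigned shared reads is not given in the sources used here. miR-215-5p counts were 0.275% to 2.47% of those of miR-192-5p, and highest in the 2 male telogen libraries, at 2.47% and 1.85%, where miR-192-5p itself had 356 and 431 TPM against 348 to 562 TPM elsewhere. The miR-194 / miR-215-5p ratio, for neighbours in the genome, ranged from 35.8 to 405, with an exact permutation p of 0.371 between telogen and catagen.

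The pancreatic miRNAs were highest in May and telogen and lowest in catagen. miR-217-5p, which marks acinar cells and targets the deacetylase SIRT1, had 295 counts over both February libraries, 150 of them in the male one, and 103 in the March female and 90 in the March male library. It had 134 and 127 counts in May and 70 and 55 in September, female first. In catagen it had 20 in each November library, 26 in the December female and 45 in the December male library. All 4 catagen libraries lay below all 8 others, in counts and in TPM. The levels were 36.5 ± 5.73 TPM in May (n = 2), 25.2 ± 6.06 in telogen (n = 4), 11.9 ± 1.56 in September (n = 2) and 6.36 ± 1.61 in catagen (n = 4). May and telogen, neighbours in this order, did not differ beyond their spread, with a log2 difference of 0.33 (SE 0.26) and an adjusted p of 0.432.

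From catagen to telogen miR-217-5p rose by 1.62 on the log2 scale (SE 0.23), with an adjusted p of 0.000528 by edgeR's quasi-likelihood test. From May to catagen it fell by 1.94 (SE 0.27, adjusted p 0.000436). Both calls passed on leaving out each of the 12 libraries in turn, with changes of 1.47 to 1.81 and of -2.28 to -1.80. Between months, the step from December to February was 1.72 (SE 0.30, adjusted p 0.0136), where 1.33% of all tested miRNAs were called, 0.667% as higher, and miR-217-5p was the only 1 of the 7. From May to September it fell by 1.08 (SE 0.31, adjusted p 0.019). That call ended without the May male library (-0.94, adjusted p 0.113) or either September library (-1.28 and -0.91, adjusted p 0.0604 and 0.118), each of which leaves 1 library that is assumed to vary like the other groups. From telogen to September the change was -0.76 (adjusted p 0.0649) by TMM and -1.09 (adjusted p 0.0187) by library totals, and from September to catagen -0.86 (SE 0.28, adjusted p 0.321).

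miR-216b, listed next to miR-217 in the RefSeq table, followed it at a lower count. It had 31 and 27 counts in February, 23 and 33 in March, 30 and 23 in May and 21 in each September library, female first. Catagen had 5 counts in the November female, 6 in the November male, 11 in the December female and 10 in the December male library. Again all 4 catagen libraries lay below the 8 others. From catagen to telogen it rose by 1.30 (SE 0.25, adjusted p 0.0023), and from May to catagen it fell by 1.40 (SE 0.29, adjusted p 0.00293), both called without each of the 12 libraries in turn. As it passed the filter only in May and telogen libraries, both were repeated with no filter, which gave 1.35 (adjusted p 0.00226) and -1.49 (adjusted p 0.00261). From September to catagen its change was -1.06 (SE 0.30), with an unadjusted p of 0.00362 and an adjusted p of 0.271.

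The ratio of miR-217-5p to miR-216b stayed between 2.36 and 5.56 in the 12 libraries, while miR-217-5p itself ranged from 5.15 to 40.5 TPM. The ratio did not separate telogen from catagen, with a log2 difference of 0.29 and an exact permutation p of 0.371. It was 4.47 to 5.52 in May and 2.62 to 3.33 in September, a difference that was not tested. From May to September miR-216b, unlike miR-217-5p, was not called. Its log2 change was -0.34 (SE 0.31), with an adjusted p of 0.422 by edgeR's quasi-likelihood test. Over all tested miRNAs, miR-216b and miR-217-5p were each the other's closest in pattern, with a Pearson r of 0.88 between log2 levels over 12 libraries, given as a description of libraries that share the TMM scale. The next after it for miR-216b were miR-369-3p and miR-487b-3p (0.85 and 0.81), and for miR-217-5p miR-376e-3p and miR-98-5p (0.87 and 0.82). By Spearman's rank correlation miR-369-3p came first for both, and neither was among the other's first 3. By library totals miR-216b stayed first for miR-217-5p (0.93), but miR-191-5p and miR-200b (0.96 and 0.95) came before miR-217-5p for miR-216b.

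miR-9-5p, a regulator of neural progenitors, was lowest in May. It had 300 counts over both May libraries, 171 of them in the female one, and 317 and 336 counts in September. Catagen had 328 counts in the November female, 197 in the November male, 254 in the December female and 253 in the December male library. Telogen had 399 and 303 in February and 478 and 263 in March, female first. The May level was 41.2 ± 0.141 TPM (n = 2) and lay below the 10 other libraries, which ranged from 49.1 to 94.9 TPM. Telogen at 73.7 ± 13.7 TPM, catagen at 62.8 ± 21.6 (each n = 4) and September at 62.2 ± 4.93 (n = 2) overlapped, and no difference between them was called, with log2 changes of -0.12 from catagen to telogen, 0.06 from telogen to September and 0.06 from September to catagen.

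From May to September miR-9-5p rose by 1.12 (SE 0.35, adjusted p 0.026), and from May to catagen it was higher by 1.17 (SE 0.31, adjusted p 0.0116), both called by edgeR's quasi-likelihood test. Library totals gave 0.59 and 0.60 with adjusted p of 0.15 and 0.094, and asking for over 5 CPM in all libraries 0.89 and 0.93, so neither was called there, while both were called by RLE scaling and by DESeq2, at 1.07 and 1.13 in each. The first call ended without either May library, either September library or the March female library, at changes of 0.91 to 1.14, and the second without either May library or the November female library, at 0.87 to 1.15. From telogen to May the change was -1.05 (SE 0.31) with an adjusted p of 0.061, which missed the threshold. It was called with sex as a block (-1.03, adjusted p 0.0384), by DESeq2 (adjusted p 0.00831), by the edgeR exact test (adjusted p 0.0273), and without both male telogen libraries (-1.28, adjusted p 0.00732), the March male (-1.16, adjusted p 0.0179) or the November female library (adjusted p 0.0286). In the November and March pairs the female library was higher, at 1.87 times (interval 1.56 to 2.24) and 1.48 times (1.27 to 1.72) the male level, and in the December pair the male to female ratio was 0.87 (0.728 to 1.04). Other neural families (6 of 13 with a row) summed to 1424 to 1635 TPM in telogen, lower than the 1702 to 2149 TPM of all other libraries. In TPM that sum was thus lowest in another phase than miR-9-5p. It was not taken on the TMM scale, where a level is divided by a factor of 1.25 and 1.29 in May and of 1.01 to 1.23 in telogen. The order of May and telogen in this sum may therefore differ on that scale. In the male telogen libraries most of the sum was miR-7-5p, at 1247 TPM or more, and miR-7-5p reached 1938 TPM in the other 10. Not every member followed the sum: miR-338-5p had at least 60.7 TPM in both male telogen libraries and at most 59.5 TPM in the other 10.

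**Figure D4:**
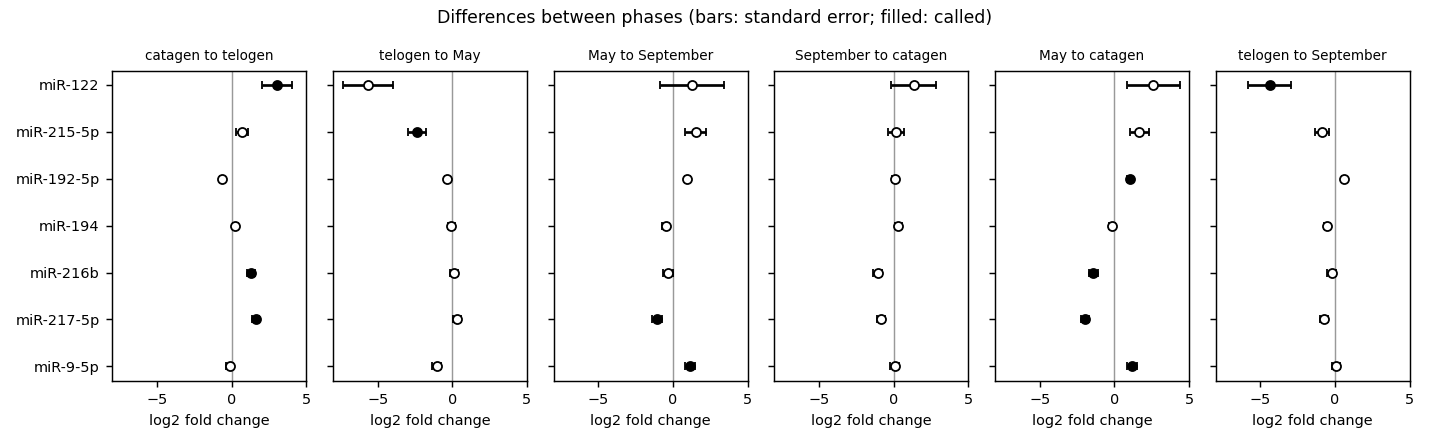
Log2 fold change on the TMM scale (horizontal axis, second phase against first, point with standard error) of the 7 tested miRNAs in the 6 comparisons between phases, filled where called. miR-217-5p and miR-216b had positive changes from catagen to telogen (1.62 and 1.30) and negative ones from May to catagen (-1.94 and -1.40), and miR-122 had the widest errors, up to 2.17.

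Counted by comparison, 3 of the 7 were called from catagen to telogen, all higher in telogen (miR-122, miR-216b and miR-217-5p), where 10.7% of all tested miRNAs were called and 6.33% were called as higher. The median log2 change of the 7 was 0.72, which is that of miR-215-5p, itself not called, and over all miRNAs it was 0.00064. As 3 of the 7 passed the filter only through telogen or May libraries, this median is partly set by the filter. From May to September 2 of the 7 were called, miR-9-5p higher and miR-217-5p lower, against 18.3% of all (9.67% higher and 8.67% lower), and the median was 0.96 against 0.07. From September to catagen none of the 7 and none of the 300 was called (0%), with 2 and 23 at an unadjusted p under 0.05, and DESeq2 and the edgeR exact test called none of the 7.

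The comparisons that skip a phase share libraries with those above. From May to catagen 4 of the 7 were called, miR-192-5p and miR-9-5p higher and miR-216b and miR-217-5p lower, against 16.7% of all tested (9% higher and 7.67% lower), with medians of 1.01 and 0.08. From telogen to September 1 was called as lower, miR-122, against 9.33% of all and 4.67% lower, and without the male telogen libraries none was. Between the paired months of a phase, February with March and November with December, none of the 7 and none of the 300 was called (0% each), with 0 of the 7 in both and 15 and 10 of all at an unadjusted p under 0.05 by edgeR, and DESeq2 called none of the 7.

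The other miRNAs closest in pattern over the 12 libraries were, for miR-192-5p, miR-30e-3p, miR-378-3p and miR-195-3p, with a Pearson r of 0.96, 0.96 and 0.93 between log2 levels on the TMM scale. For miR-194 they were miR-532-3p, miR-126-5p and miR-374a-5p (0.91, 0.89 and 0.87). For miR-9-5p they were miR-29b-3p, miR-182 and miR-30a-3p (0.79, 0.77 and 0.76), and for miR-215-5p they were miR-223-5p, miR-122 and miR-7-3p (0.83, 0.77 and 0.73). miR-192-5p and miR-217-5p ran opposite to each other, at an r of -0.90. For miR-122 the closest were miR-215-5p, miR-223-5p and let-7d-5p (0.77, 0.65 and 0.63), and as 2 libraries stand apart from the other 10 these values follow those 2. With Spearman's correlation none of the 3 named was kept for miR-192-5p, miR-217-5p or miR-9-5p, and 2 of 3 for miR-122, miR-194 and miR-215-5p.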

How the data were processed

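Small RNA reads were trimmed and mapped by the authors to the goat genome CHIR_2.0 with Bowtie 0.12.9 (the name and version per the submitters' processing notes). The deposited files hold raw counts per miRNA and, separately, TPM values, which the authors made without a length term: each was within 0.005 of the count per 1000000 of the library total. How reads matching several miRNAs were assigned is not given in the sources used here. Counts were tested with edgeR 4.0.16 (R 4.3.3; glmQLFit and glmQLFTest, TMM, more than 5 CPM in at least 2 libraries), in 1 fit of 4 phases, 1 of 6 months, 1 with sex and month, and 1 with sex within phase, with Benjamini-Hochberg adjustment over 300 miRNAs. The edgeR fit of sex within phase had no minimum fold. Pattern neighbours were the 3 tested miRNAs with the highest Pearson r of log2 CPM (prior count 1). DESeq2 1.42.0 and other settings were alternatives. The tests were checked on simulated data. The libraries of each month differed by more than sampling noise. Count ratios have exact intervals for counting error only. The miRNAs and lists were chosen with earlier results of these data known.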

Additional observations from a re-analysis of the deposited data

Results flagged for a closer look

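Of 16 groups of 4 libraries examined, 2 had a library standing apart by Dixon's test, which chance alone flags in about 1 of 20 groups. miR-194 in catagen had 338.1 TPM in the December female library, with 222 to 232 TPM in the other 3, and the gap was 0.912 of the range. miR-9-5p in catagen had 94.9 TPM in the November female library, with 49.1 to 56.5 TPM in the other 3, and the gap was 0.839 of the range. The male to female difference of miR-122 was larger in telogen than in catagen by 5.11 on the log2 scale, by the test of the difference itself (adjusted p 0.000887 by edgeR's quasi-likelihood test, and 4.92 with an adjusted p of 0.000704 with no filter on low counts).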

How the results depend on the processing

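Of the settings other than leaving out a library, the following moved the number of miRNAs called among the 7 by over 1.5 times. From telogen to May (1 in the report) it was 0 by library totals, with no filter, with over 5 CPM asked in all libraries, and with only the groups compared, 3 by DESeq2, by the edgeR exact test and with sex as a replicate block, and 2 without both male telogen libraries. From May to catagen (4) it was 2 by library totals and 1 with the strict filter. From telogen to September (1) it was 2 by library totals and with no minimum fold, and 0 with the strict filter, with only the groups compared and without both male telogen libraries. The strict filter, which leaves out miR-122, miR-215-5p and miR-216b, gave 1 from catagen to telogen (3) and 1 from May to September (2), and DESeq2 gave 2 from March to May (0). Smaller moves were 3 to 6 from May to catagen, 2 to 4 from catagen to telogen and 3 from May to September. Leaving out 1 library at a time gave 0 to 3 from telogen to May, 0 to 2 from May to September, 2 to 5 from May to catagen and 0 to 1 from telogen to September. Without both male telogen libraries the catagen to telogen change of miR-122 was -1.14, and the log2 miR-194 / miR-215-5p ratio difference, -0.58, became 0.19. The cause of these moves was not tested beyond what each setting leaves out. No label pairs libraries across months; sex was the only block tried. May and September have 2 libraries each, and miR-122, miR-192-3p, miR-215-5p and miR-216b have fewer than 40 counts in most libraries, which limits what could be called.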
